A study of Mus musculus with 15 samples.

Results

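The chromatin modifiers and remodelers described here are the protein-coding transcripts of genes named Kdm, Kmt, Setd, Chd, Smarc, Arid, Hdac, Sirt or Brd followed by their family number or letter, on the autosomes. They were chosen by the gene name in the GENCODE M21 annotation and not by their values, and they comprise 92 transcripts of 62 genes among the 10370 transcripts of 7741 genes that were measured. A further 6 transcripts of such genes are annotated as subject to nonsense-mediated decay or as holding a retained intron, 8 lie on chromosome X or Y, and neither set is counted among the 92. The RNA came from the dissected cortex of male C57BL/6 mice, labelled as 12 weeks old, taken 1 month after a Sham procedure or high-frequency head impact (HF-HI), and total RNA was sequenced. HF-HI mice received repeated head impacts under isoflurane on consecutive days, and Sham mice shared the anesthesia and handling without impacts. The groups hold 7 Sham and 8 HF-HI libraries, which differ by label in the procedure alone, and no library carries a transgene or drug. The labels give a library per sample and do not state how many mice each came from, so p-values measure the spread between these libraries.

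DNA in the nucleus is wrapped around histones, and most of the genes described here encode enzymes and adaptors that help decide how open that packaging is. The choice by name also brings in genes described below as acting elsewhere, such as Setd3 and Sirt3. Lysine methyltransferases and demethylases write and remove methyl groups on histone tails, deacetylases remove the acetyl groups that bromodomain proteins bind, and the ATP-driven remodelers of the CHD, SWI/SNF and ISWI families slide or evict nucleosomes. In cortical neurons these proteins are known for activity-dependent transcription and for memory, and mutations in many of them cause neurodevelopmental disorders.

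Of the 62 genes 22 are listed as several transcripts, and 35 of their 52 transcripts counted here have under 100 bases of their own. This bears on the values of single transcripts below, and those of Smarcc2 and Kmt2d are examples. Smarcc2 encodes BAF170, a scaffold subunit of the SWI/SNF complex. Its transcript Smarcc2-202 holds a coding exon of 93 bases at chr10:128481682-128481774 (GRCm38, plus strand) that Smarcc2-201 and Smarcc2-203 lack. The exon is printed in capitals between 15 bases of each neighbouring exon, followed by the joined neighbours as they read in Smarcc2-201, all 5′ to 3′.
Smarcc2-202: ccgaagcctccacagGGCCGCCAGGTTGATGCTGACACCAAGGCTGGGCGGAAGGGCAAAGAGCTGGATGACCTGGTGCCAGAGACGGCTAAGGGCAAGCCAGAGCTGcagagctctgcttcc
Smarcc2-201: ccgaagcctccacagcagagctctgcttcc
Kmt2d encodes the large methyltransferase that marks enhancers, and its coding sequences in Kmt2d-202 and Kmt2d-201 both have 16764 bases and differ in 1 of them. The difference comes from 4 coding bases taken from chr15:98855764-98855767 in Kmt2d-202 and from chr15:98855682-98855685 in Kmt2d-201 (GRCm38, minus strand), here in capitals with 15 bases on each side. Counted from 1 at the 5′ end of the printed stretch, the substitution from Kmt2d-202 to Kmt2d-201 is C17A.
Kmt2d-202: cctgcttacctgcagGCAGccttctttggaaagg
Kmt2d-201: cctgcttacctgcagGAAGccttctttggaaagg
Outside the coding sequence, Kmt2d-202 has 3 bases and Kmt2d-201 has 21 that the other lacks.

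Sham libraries held 5798810 to 10582858 reads in the listed transcripts (size factors 0.818 to 1.47) and HF-HI libraries 3496103 to 8666307 (size factors 0.501 to 1.22). The 3 shallowest libraries are HF-HI replicates 2, 4 and 7. On the first principal component of all transcripts, HF-HI replicate 2 lay at 12.6 and the other 14 libraries between −3.35 and 0.721, so that library stood apart. Cortical identity was checked with 6 marker genes of excitatory neurons, such as Slc17a7, Neurod6, Tbr1 and Camk2a, all of which were listed, with summed levels of 14148 to 16123 normalized counts in Sham and 15129 to 16855 in HF-HI, and 2 of their 7 transcripts were higher with an unadjusted p under 0.05 in limma. Of the 8 striatal markers 7 were listed, with sums of 4022 to 6628 and 3162 to 6585 and 2 of 11 transcripts lower by the same test, and of 5 choroid plexus markers only Ttr and Enpp2 were, with sums of 1972 to 11212 and 2018 to 13832. Transcripts of the mitochondrial genome summed to 244243 to 315596 in Sham and 160717 to 296674 in HF-HI, and 7 of 13 had an unadjusted p under 0.05, all lower after HF-HI. Nuclear noncoding transcripts such as Malat1 and Meg3 summed to 178268 to 201304 and 181103 to 215544, and 5 of 27 were higher. The part of depth, tissue makeup and these other RNAs in the results below was not tested, except that depth was entered as a covariate. Depth itself differed between the groups, with a mean log2 size factor of 0.304 in Sham and −0.246 in HF-HI. The covariate can thus also take up a difference between the procedures, and the 2 cannot be fully told apart. In whole cortex, fewer cells of a type and less RNA per cell cannot be told apart.

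As a whole, the chromatin transcripts had close levels in both groups, with a slightly higher mean sum in HF-HI. Normalized counts, which are reads divided by the size factor of the library, summed over the 92 transcripts to 43792 ± 1141 in Sham (SD, n = 7) and 44795 ± 944 in HF-HI (SD, n = 8). The Sham libraries ranged from 42396 to 45517 and the HF-HI libraries from 43357 to 45924, so the groups overlapped. The median log2 ratio of HF-HI over Sham was 0.0036 among the 92 transcripts and −0.0019 among all transcripts. The members differ from the rest of the transcriptome in length, with a median of 5924 bases against 3711, and had a similar median level of 341 against 316 normalized counts.

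No chromatin transcript passed the adjusted threshold of 0.1 in limma, and none of the 10370 transcripts did. At an unadjusted p under 0.05, 11 of the 92 transcripts (12.0%) differed, against a background of 8.83% of all transcripts. Higher in HF-HI were 8 of them (8.70%), against a background of 4.94%, and lower were 3 (3.26%), against 3.9%. The share of calls in either direction is near the background, and the surplus among higher calls was not tested. In no chromatin transcript did the HF-HI and Sham libraries separate without overlap, which 0.154% of all transcripts did. With the log2 size factor as a covariate, 8 of the 92 were called against a background of 5.14%, 5 of them among the 11, and without the 3 shallowest libraries 5 were called against 6.33%. The count was 7 without Sham replicate 2 and 6 without HF-HI replicate 4. Without HF-HI replicate 2 it was 12.

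**Figure D1:**
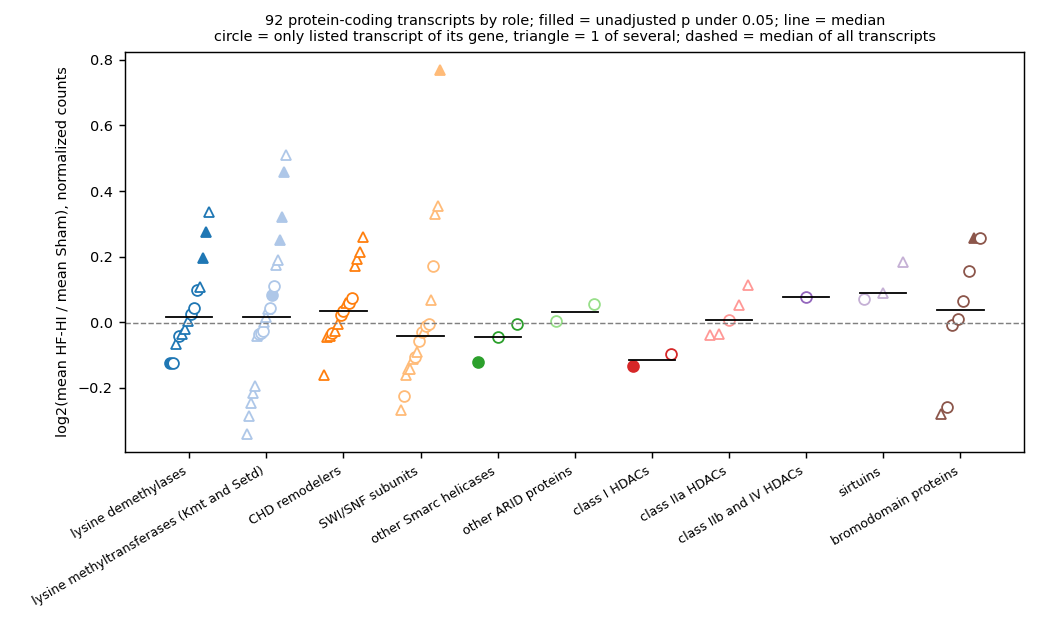
Log2 ratio of mean HF-HI over mean Sham normalized counts (vertical axis) of the 92 transcripts grouped by role (horizontal axis); filled symbols have an unadjusted p under 0.05, circles are the single listed transcript of a gene, triangles are 1 of several, black lines are medians and the dashed line is the median of all transcripts. The ratios run from −0.34 (Setd5-201) to 0.77 (Smarcc2-201), and the widest are triangles.

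The same reads were then summed over all listed transcripts of each gene, those of other types included. Testing these sums with voom and limma over 7741 genes removes any effect of how reads were divided among the listed transcripts. Reads assigned to transcripts that are not listed are not in the sums. Of the 62 chromatin genes, 7 (11.3%) had an unadjusted p under 0.05, against a background of 9.44%, and again this share is near the background. The 5 genes higher in HF-HI were Kdm5b, Kdm2a, Kmt2e, Kdm3a and Brd1 (background 5.19%), and the 2 lower were Smarca5 and Hdac2 (background 4.25%). None passed the adjusted threshold of 0.1, which 0.0129% of genes did, and the smallest adjusted p among the 62 was 0.276. With depth as a covariate, 8 genes were called against a background of 6.14%, and Kdm5b, Kdm2a, Kmt2e, Kdm3a and Hdac2 were among them. Without the 3 shallowest libraries 6 genes were called against 6.55%, and without HF-HI replicate 2 there were 8. The count moved between 5 and 10 when each library was left out.

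**Figure D2:**
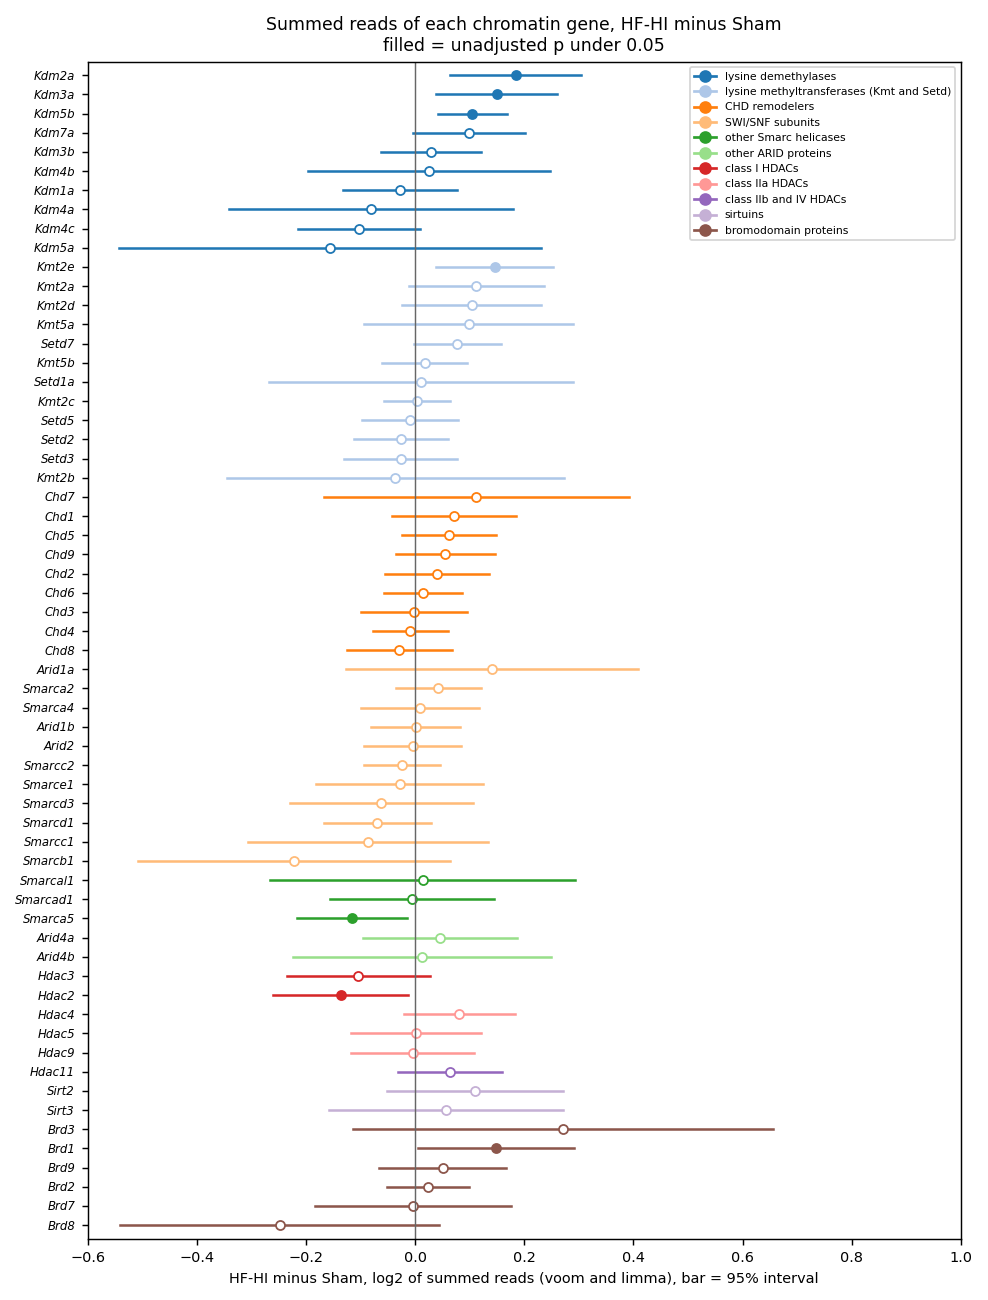
Difference HF-HI minus Sham in log2 of the summed reads of each of 61 of the 62 genes (horizontal axis, voom and limma; bars are 95% intervals), ordered by role; filled points have an unadjusted p under 0.05. The 7 filled points lie between −0.14 (Hdac2) and 0.18 (Kdm2a), and open points with wider bars, such as Brd8 and Brd3, lie beyond them.

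Among the enzymes that remove methyl groups, the lysine demethylases, 3 of 10 summed genes were called higher in HF-HI and none lower, against 5.19% and 4.25% of all genes. Per transcript, 2 of 14 were called higher and 1 lower, against 4.94% and 3.9% of all transcripts. The surplus among so few members was not tested. Kdm5b, which removes the histone H3 methyl mark of active promoters, had 741, 779 and 806 normalized counts in Sham and 801, 834 and 865 in HF-HI (lowest, median and highest library). Every HF-HI library exceeded the Sham median and 6 exceeded every Sham library, with a narrow overlap between 801 and 806. The difference was 0.11 ± 0.030 (log2, SE; 95% interval 0.042 to 0.17), with an unadjusted p of 0.00277 and an adjusted p of 0.276 from voom and limma, and the unadjusted p was at most 0.00745 with any library left out.

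Kdm5b is listed as the transcripts Kdm5b-201 (chromosome 1, 134560171 to 134635285, GRCm38) and Kdm5b-203. Kdm5b-201, the transcript with the longer 3′ end, of which 3763 bases are in no other listed transcript, was called. Its counts were 354, 425 and 436 in Sham and 433, 475 and 519 in HF-HI, and 7 of 8 HF-HI libraries lay above every Sham library. The log2 ratio was 0.20 with an unadjusted p of 0.00276 (adjusted p 0.345, limma), the smallest among the 92 transcripts. Kdm5b-203, whose last exon ends earlier, holds 483 bases that Kdm5b-201 lacks, 54 of them coding. It had 361 ± 41.8 in Sham and 362 ± 38.9 in HF-HI. The share of the gene's counts in Kdm5b-201 was 53.2% ± 4.56 and 56.5% ± 4.03, and this shift in share had an unadjusted p of 0.192 in limma, so unequal change of the transcripts was not shown.

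Kdm2a, a demethylase that binds unmethylated CpG islands, had sums of 607, 672 and 712 in Sham and 633, 747 and 854 in HF-HI. Of the HF-HI libraries 6 lay above every Sham library, and HF-HI replicate 4, with 633, lay below the Sham median. The difference was 0.18 ± 0.057 (log2, SE), the highest among the 7 called genes, with an unadjusted p of 0.00483 from voom and limma and 0.0181 with depth as a covariate. Neither of its transcripts was called by itself: Kdm2a-201 had 209 ± 105 and 264 ± 138 normalized counts, and Kdm2a-202 had 451 ± 110 and 486 ± 167. In Sham replicate 7 Kdm2a-201 had 7.37 normalized counts and Kdm2a-202 665, while the sum of 672 was at the middle of the Sham range.

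Kdm3a, which removes a repressive methyl mark of histone H3, had sums of 379, 413 and 443 in Sham and 420, 445 and 502 in HF-HI. All 8 HF-HI libraries were above the Sham median and 4 were above every Sham library. The difference was 0.15 ± 0.053 (log2, SE; unadjusted p = 0.0113, voom and limma), and it kept an unadjusted p under 0.05 with each library left out, with depth as a covariate and without the 3 shallowest libraries. Of its transcripts Kdm3a-201 was called, with 224 ± 37.3 in Sham and 271 ± 25.6 in HF-HI (unadjusted p = 0.0129, limma), and Kdm3a-202 had 189 ± 39.3 and 184 ± 10.5.

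The other demethylases gave little. Kdm4c-201, the single listed transcript of a member of the JMJD2 family, had 310 ± 15.3 in Sham and 284 ± 23.3 in HF-HI, and none of the 8 HF-HI libraries reached the Sham median of 310. It was called lower per transcript (log2 ratio −0.12, unadjusted p = 0.0425, limma) but not from summed reads (unadjusted p = 0.0689), and its p was 0.492 with depth as a covariate. Kdm1a, the flavin-dependent demethylase of the CoREST complex, had sums of 406 ± 27.8 and 393 ± 21.7, with a 95% interval of −0.13 to 0.077 for the log2 difference. Kdm7a was called with depth as a covariate (unadjusted p = 0.0230, voom and limma) and not without it (0.0580), with sums of 1318 ± 96.9 and 1409 ± 89.2. Kdm3b, Kdm4a, Kdm4b and Kdm5a were not called.

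Among the 12 Kmt and Setd genes, which encode methyltransferases and related SET-domain proteins, Kmt2e was called from summed reads. Kmt2e, a PHD-finger and SET-domain protein, had 752, 873 and 941 in Sham and 895, 975 and 1083 in HF-HI. The 8 HF-HI libraries were all higher than the Sham median and 6 were above every Sham library, and the groups overlapped from 895 to 941. Its difference of 0.15 ± 0.051 (log2, SE) had an unadjusted p of 0.0104 from voom and limma, 0.00549 with depth as a covariate and at most 0.0280 with any library left out. Kmt2e-201 alone, at chromosome 5, 23434441 to 23504235, was also higher, with 667 ± 118 and 793 ± 106 (unadjusted p = 0.0313, limma), but its call was lost with depth as a covariate (0.0530), without the 3 shallowest libraries (0.118) and in 7 of the 15 fits that left out 1 library.

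Per transcript, Kmt2d-201, Setd5-202 and Setd7-201 were higher as well, and the sums of these genes were not called. With Kmt2e-201, 4 of the 21 Kmt and Setd transcripts (19.0%) were called higher and 0 lower, against backgrounds of 4.94% and 3.9%. This surplus among few transcripts was not tested. With depth as a covariate 1 of the 21 was called, against 5.14%, and without the 3 shallowest libraries 0 were, against 6.33%. Kmt2d-201 had 804, 864 and 1092 in Sham and 807, 1119 and 1445 in HF-HI, a log2 ratio of 0.32 (unadjusted p = 0.0193, limma). Kmt2d-202, which differs from it by the segments printed above, had 666 ± 80.4 and 573 ± 187, and both together had 1545 ± 148 in Sham and 1672 ± 138 in HF-HI (unadjusted p = 0.103, voom and limma). The p of Kmt2d-201 was 0.267 with depth as a covariate. Setd5, a SET-domain protein linked to intellectual disability, showed the same picture: Setd5-202, which has no base of its own among the listed transcripts, had 223 ± 86.7 and 307 ± 43.3, while Setd5-201 had 184 ± 37.5 and 146 ± 62.5 and Setd5-203 had 238 ± 78.1 and 195 ± 32.1. The summed Setd5 was 837 ± 45.8 in Sham and 834 ± 43.8 in HF-HI. Setd7, a monomethyltransferase with a single listed transcript, had 1466, 1558 and 1703 in Sham and 1499, 1675 and 1765 in HF-HI (log2 ratio 0.084, unadjusted p = 0.0487, limma), and its p was 0.334 with depth as a covariate and 0.0578 by voom.

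Kmt2a, the founding methyltransferase of this family and a gene known for memory in forebrain neurons, had sums of 1667 ± 132 in Sham and 1802 ± 162 in HF-HI. Its log2 difference of 0.11 (95% interval −0.012 to 0.24) had an unadjusted p of 0.0740 from voom and limma, and 0.0330 without the 3 shallowest libraries. Setd1a, a catalytic subunit of the COMPASS complexes and a schizophrenia risk gene, had 189 ± 34.4 and 195 ± 34.4 normalized counts in its single listed transcript. Kmt2c, a partner enzyme of Kmt2d at enhancers, and Setd2, which marks transcribed gene bodies, had 95% intervals of the log2 difference of −0.057 to 0.065 and −0.11 to 0.060. Setd3, an actin histidine methyltransferase, had −0.13 to 0.077. Kmt2b, Kmt5a and Kmt5b were not called either.

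**Figure D3:**
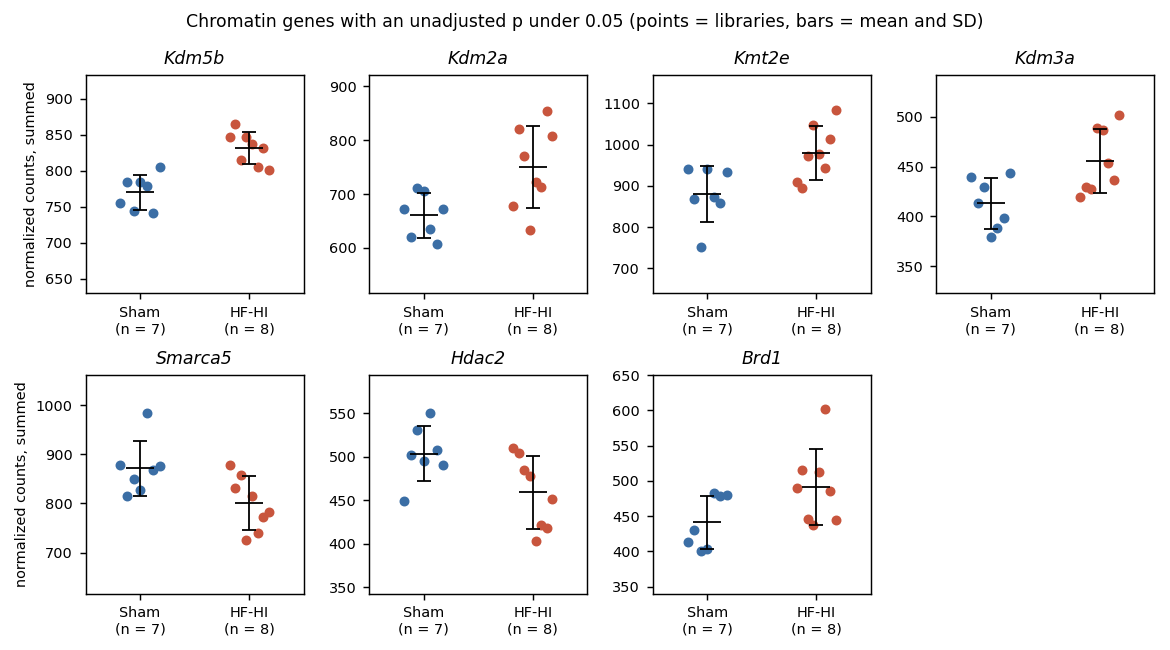
Summed normalized counts (vertical axis, not starting at 0) of the 7 genes with an unadjusted p under 0.05 in each of the 7 Sham and 8 HF-HI libraries; points are libraries and bars are mean and SD. The groups overlap in every panel, least in Kdm5b (Sham up to 806, HF-HI from 801), and the highest Brd1 and Smarca5 points, 602 and 983, stand off from their groups.

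Deacetylases of class I, which work in the NuRD, Sin3, CoREST and NCoR corepressors, were represented by Hdac2 and Hdac3. Hdac2, a deacetylase known as a brake on memory-related transcription, had 449, 503 and 550 normalized counts in Sham and 403, 465 and 510 in HF-HI. In HF-HI, 6 libraries were under the Sham median and 3 below every Sham library. Summed reads gave a log2 difference of −0.14 ± 0.058 (SE; unadjusted p = 0.0314, voom and limma), and the per-transcript test on Hdac2-201 (chromosome 10, 36974544 to 37001889, GRCm38) gave an unadjusted p of 0.0385. The summed gene kept its call with depth as a covariate (unadjusted p = 0.0349, voom and limma). It lost the call on omission of Sham replicate 3, Sham replicate 5, or any of HF-HI replicates 5, 6 and 7, where the unadjusted p reached 0.0894 in limma. Hdac3, the catalytic subunit of NCoR, had 370 ± 18.8 and 347 ± 41.1, was not called (unadjusted p = 0.111, voom and limma), and had a p of 0.0469 with depth as a covariate. No listed row of Hdac1, Sirt1 or Kdm6b was available among the members, so these were not analysed here.

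Class IIa deacetylases, which shuttle between nucleus and cytoplasm with neuronal activity, were not called. Hdac4 had sums of 671 ± 48.1 in Sham and 714 ± 38.7 in HF-HI (log2 difference 0.081, 95% interval −0.020 to 0.18). Hdac5 had 762 ± 45.7 and 756 ± 71.8, and Hdac9 had 345 ± 21.4 and 346 ± 26.4. Hdac11, the class IV deacetylase and the highest chromatin gene per length, was at 1077 ± 48.2 and 1137 ± 95.9. Of the sirtuins, the NAD-dependent deacetylases, cytoplasmic Sirt2 had 383 ± 41.2 and 416 ± 49.5 and mitochondrial Sirt3 had 264 ± 32.5 and 278 ± 49.7. None of these 6 genes was called from summed reads, with or without depth as a covariate or the 3 shallowest libraries.

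No CHD remodeler was called: 0 of 15 transcripts and 0 of 9 summed genes had an unadjusted p under 0.05 in limma, with or without depth as a covariate and without the 3 shallowest libraries. The backgrounds without a covariate were 8.83% of transcripts and 9.44% of genes, and with so few members nothing is read from the count of 0. Chd4, the ATPase of the NuRD complex, had sums of 1667 ± 67.4 in Sham and 1658 ± 64.4 in HF-HI, and the 95% interval of its log2 difference was −0.078 to 0.060. Chd3, an alternative NuRD ATPase, had 2508 ± 171 and 2501 ± 163. Chd5, the neuron-enriched ATPase of the same subfamily, had 2151 ± 144 and 2247 ± 91.9. Chd8, known for its link to autism, had 787 ± 51.7 and 769 ± 41.9, with an interval of −0.13 to 0.068.

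SWI/SNF subunits gave 1 called transcript of 18, Smarcc2-201, and 0 called genes of 11, against backgrounds of 8.83% and 9.44%. Smarcc2-201 (chromosome 10, 128459294 to 128490172, GRCm38) had 1.22, 132 and 245 normalized counts in Sham and 154, 245 and 373 in HF-HI. All 8 HF-HI libraries were above the Sham median, 4 were above every Sham library, and Sham replicate 3 was near 0. The log2 ratio of 0.77 was the highest of the 92, with an unadjusted p of 0.0292 (adjusted p 0.520, limma), and the call was lost without HF-HI replicate 4, 5 or 6. The other transcripts had lower means in HF-HI, with Smarcc2-202, which holds the exon printed above, at 937 ± 47.5 and 879 ± 68.1 and Smarcc2-203 at 362 ± 91.7 and 301 ± 42.8. Their sum was 1444 ± 51.0 in Sham and 1426 ± 68.7 in HF-HI, a log2 difference of −0.024 (95% interval −0.093 to 0.046). Smarcc2-202 had an unadjusted p of 0.0810 in limma, 0.0257 with depth as a covariate and 0.00947 without the 3 shallowest libraries.

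The ATPases of the complex were not called: Smarca2 had sums of 1694 ± 98.8 and 1745 ± 61.9, and Smarca4 of 1159 ± 93.0 and 1168 ± 87.5. Arid1b, which defines the canonical complex and is mutated in Coffin-Siris syndrome, had 964 ± 38.8 and 966 ± 53.8. Its paralog Arid1a had 536 ± 93.9 and 603 ± 122, with a wide interval of −0.13 to 0.41 for the log2 difference. Smarcb1, a core subunit, was not called without a covariate and was called with depth as a covariate, both per transcript (unadjusted p = 0.0148, limma) and per gene (0.0107, voom and limma), with 179 ± 39.5 and 153 ± 32.2. Ratios of summed counts per length between paralogs of the complex were not tested: Smarca2 over Smarca4 was 1.30 ± 0.0836 in Sham and 1.34 ± 0.0800 in HF-HI, and Smarcc2 over Smarcc1 was 6.04 ± 0.421 and 6.62 ± 1.37, both above 1 in all 15 libraries. Arid1a over Arid1b was 0.605 ± 0.102 and 0.695 ± 0.147, below 1 in all 15.

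Outside SWI/SNF, Smarca5, the ISWI ATPase also called SNF2H, was lower in HF-HI. It has 1 listed transcript (chromosome 8, 80698507 to 80739497, GRCm38), with 814, 868 and 983 normalized counts in Sham and 725, 799 and 878 in HF-HI. In HF-HI, 7 libraries were under the Sham median and 4 below every Sham library. The log2 difference was −0.12 ± 0.048 (SE; unadjusted p = 0.0272, voom and limma), and the p was 0.249 with depth as a covariate and 0.0933 without the 3 shallowest libraries. It was also lost without Sham replicate 5, the highest library, or without HF-HI replicate 4 or 6. The helicases Smarcad1 and Smarcal1 and the Sin3-associated Arid4a and Arid4b were not called.

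Of the bromodomain proteins, Brd1, a scaffold of histone acetyltransferase complexes, had 400, 431 and 483 in Sham and 437, 488 and 602 in HF-HI. All 8 HF-HI libraries were above the Sham median and 5 above every Sham library. The difference was 0.15 ± 0.068 (log2, SE), with an unadjusted p of 0.0439 from voom and limma. In limma, its transcript Brd1-203 had an unadjusted p of 0.0503. Leaving out any of 9 libraries ended the call of the sum (Sham replicates 1 to 4 and HF-HI replicates 1, 2, 5, 6 and 7). So did depth as a covariate (unadjusted p = 0.102, voom and limma) and leaving out the 3 shallowest libraries (0.0676). Brd2-202, 1 of the transcripts of the BET protein Brd2, had 282, 391 and 449 in Sham and 375, 458 and 541 in HF-HI (unadjusted p = 0.0158, limma). Its unadjusted p was 0.185 with depth as a covariate and 0.136 without the 3 shallowest libraries, so the call was lost in both. Here Brd2-201 had 252 ± 59.5 and 208 ± 73.8, and the summed Brd2 was 815 ± 27.6 in Sham and 825 ± 42.0 in HF-HI. Brd3, Brd7, Brd8 and Brd9 were not called.

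Libraries differed far more in how a gene's reads were divided than in how many there were. Of the 62 genes 22 had several listed transcripts, and the median within-group coefficient of variation (CV) was 22.1% for their 52 member transcripts and 6.07% for the 22 sums. The sum varied less than each member transcript in 21 of 22 genes, the exception being Sirt2. Transcripts with under 100 bases of their own had a median CV of 23.4%, those with 100 or more 15.2%, and the single listed transcripts of the other 40 genes 9.95%. Counting error alone would give 5.58% for the 52 transcripts and 3.33% for the sums. All transcripts of genes with several listed had a median CV of 20.5%, against 9.05% for single listed transcripts, so the pattern was general in this table.

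**Figure D4:**
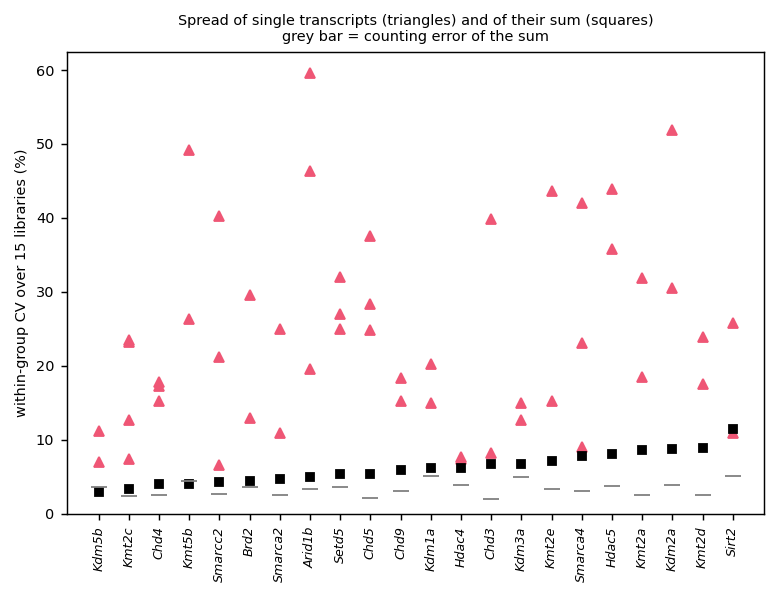
Within-group CV (vertical axis, percent) over the 15 libraries of each member transcript (triangles) and of the summed gene (squares) for the 22 genes with several listed transcripts; grey bars are the counting error of the sum. Squares lie between 2.90% and 11.5%, while triangles reach 59.6% in Arid1b.

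The plainest cases were trades within a gene in a single library. In HF-HI replicate 3, Kmt2a-202 had 60.2 normalized counts, against 500 to 841 in the other HF-HI libraries, and Kmt2a-201 had 1764, against 921 to 1278. The sum of 1824 was inside the HF-HI range, and Kmt2a-202 has 9 bases that Kmt2a-201 lacks. In HF-HI replicate 2, Kmt2d-202 had 149, against 535 to 711 elsewhere in the group, and Kmt2d-201 had its highest value of 1445, with a sum of 1594. Arid1b-203 was at 2.77 in Sham replicate 2 and 6.15 in HF-HI replicate 2, where Arid1b-202 reached 634 and 665. The summed Arid1b was 968 and 983 in these libraries, near the group means. A low value of 1 transcript in 1 library was thus no loss of the gene's reads in these cases.

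**Figure D5:**
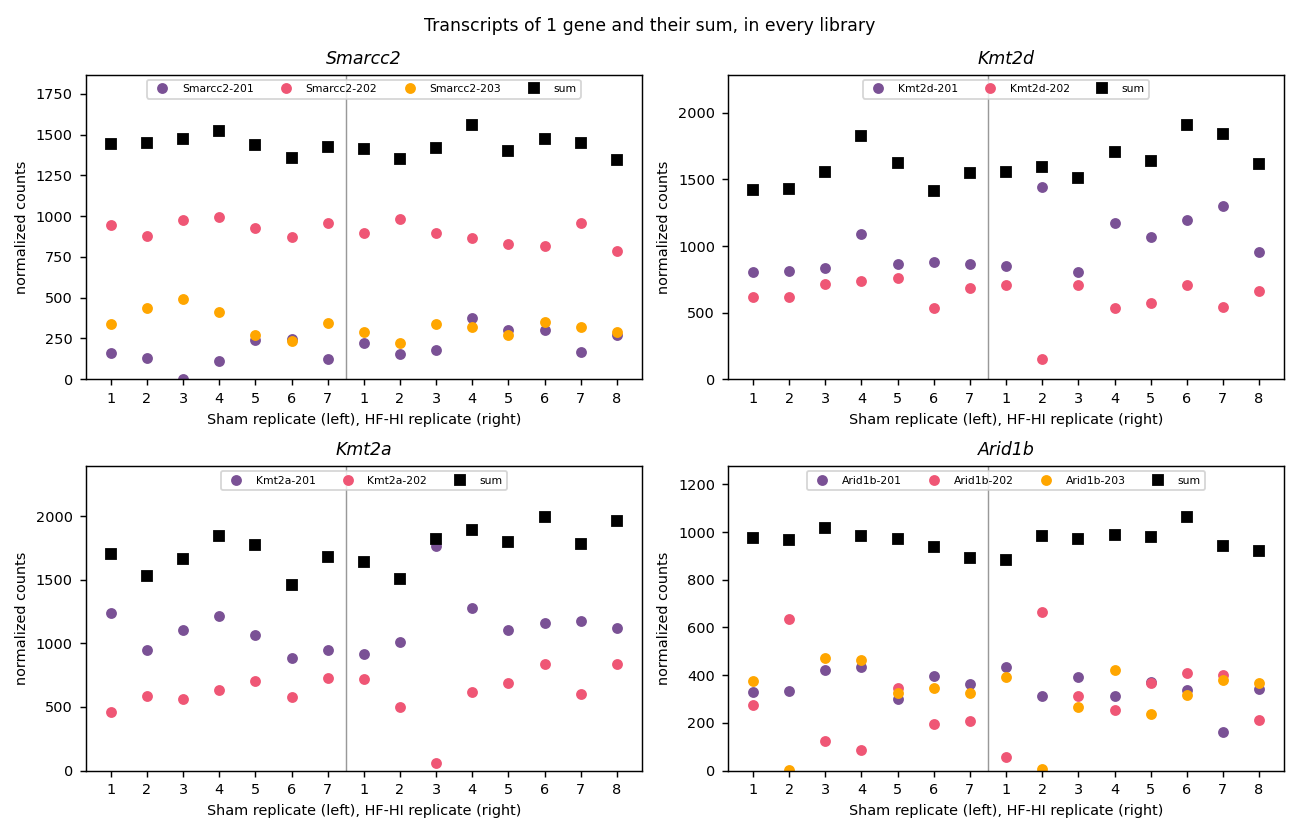
Normalized counts (vertical axis) of the listed transcripts of Smarcc2, Kmt2d, Kmt2a and Arid1b (coloured circles) and of their sum (black squares) in every Sham (left of the line) and HF-HI (right) library; the order of libraries within a group has no meaning. Single transcripts reach the floor in some libraries, as Arid1b-203 at 2.77 and Smarcc2-201 at 1.22. Relative to their height, the squares vary less than the circles of the same gene.

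The division of reads itself was tested as the log2 ratio of a transcript to the other listed transcripts of its gene. Where a gene has 2 listed transcripts, their ratios mirror each other and are not separate tests, here and in the background. In limma, 2 of 52 member transcripts (3.85%) had an unadjusted p under 0.05, below the background of 6.43%, and none passed the adjusted threshold. They were Brd2-202, with 46.7% ± 6.05 of its gene's counts in Sham and 55.4% ± 7.90 in HF-HI (unadjusted p = 0.0318), and Setd5-202, with 26.8% ± 10.6 and 36.7% ± 4.26 (unadjusted p = 0.0384). Smarcc2-201 followed, with 10.2% ± 6.01 and 17.2% ± 4.96 (unadjusted p = 0.0501, and 0.0124 with depth as a covariate). Neither of the called shares kept its call with depth as a covariate, where Brd2-202 had an unadjusted p of 0.322 and Setd5-202 of 0.0515, and no share was called without HF-HI replicate 4.

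Per length, the genes of this group span a wide range of levels, given here as normalized counts per kilobase over both groups. The highest were Hdac11 (418), Setd3 (399), Chd3 (359), Smarcc2 (324) and Smarca2 (291), and among the lowest were Brd3 (31.1), Kdm5a (21.1) and Chd7 (14.6). Hdac11 in Sham (406 ± 18.2) and Setd3 (404 ± 33.8) did not differ beyond their spread. Among the NuRD ATPases Chd3 stood above Chd4 in all 15 libraries, with a ratio of 1.43 ± 0.0786 in Sham and 1.44 ± 0.120 in HF-HI. Kmt2a exceeded Kmt2b in all 15, with ratios of 2.96 ± 0.547 and 3.22 ± 0.484, and Kmt2c exceeded Kmt2d, with 2.67 ± 0.220 and 2.44 ± 0.258. Transcripts of low abundance were absent from the table, whose lowest mean was 108 normalized counts, so a chromatin gene without a row can still be expressed.

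Partners of these proteins outside the gene-name rule comprised 123 transcripts of 89 genes, among which 2 were higher and 3 lower at an unadjusted p under 0.05 (4.07%, against the background of 8.83%). Tet3, which oxidizes methylated cytosine in neurons, had 602, 676 and 798 normalized counts in Sham and 736, 809 and 953 in HF-HI, with all 8 HF-HI libraries above the Sham median (unadjusted p = 0.000715, adjusted p = 0.267, limma). Its unadjusted p was 0.0111 with depth as a covariate. Wdr5, a shared subunit of the COMPASS complexes, had 174 ± 14.2 and 196 ± 16.8 (unadjusted p = 0.0321, limma). Among the lower were the Polycomb subunit Bmi1, with 417 ± 76.6 and 300 ± 69.6 (unadjusted p = 0.00629, limma), and Zbtb4-203, a transcript of a methyl-CpG-binding protein, with 153 ± 54.0 and 99.0 ± 46.4. Wdr5, Bmi1 and Zbtb4-203 were not called with depth as a covariate. Acetyltransferases (19 transcripts), SWI/SNF partners (10) and ISWI and INO80-type remodelers (13) had none called.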

How the data were processed

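Total RNA of mouse cortex was sequenced after ribosomal depletion with a stranded kit (7 Sham, 8 HF-HI libraries). The authors aligned reads to mm10 with STAR, used eXpress for counts of each Ensembl transcript, and deposited DESeq2 variance-stabilized values on a log2 scale; versions and annotation release are not given in the sources used here. eXpress divides reads shared by transcripts by model, so counts of near-identical transcripts are estimates. The transformation was inverted, giving reads and size factors. Of the values, 100% were whole within a tolerance of 0.1 reads, with the very highest values left out of this check. Depth covers listed transcripts only. Names came from GENCODE M21 (10241 of 10370 transcripts matched); sequences were read from that set.

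Each transcript was tested with limma 3.58.1 (R 4.3.3) on the variance-stabilized values, the form in which the data were deposited. Low counts are compressed on this scale. A doubling changes the value by 0.195 from 100 normalized counts, 0.326 from 300 and 0.531 from 1000. The model held group only, with eBayes trend, two-sided tests and Benjamini-Hochberg over all transcripts at a threshold of 0.1. Calls at an unadjusted p under 0.05 were counted. The recovered reads per transcript were tested with voom as an alternative. Reads summed per gene were tested with limma-voom, and shares as log2 ratios with a pseudocount of 10. Log2 ratios are of mean normalized counts. Code was tested on simulated data. Named were called members (at most 20), a fixed set of 24 genes (21 listed) and called partners (at most 8); genes called only in other fits, such as Kdm2a and Brd1, were named after their values were seen. Some named genes are not reported here. Members, lists and rules were chosen with earlier results of these data known. The alternatives were other priors, scalings, filters, units and weights, depth, a replicate block and each library left out. Leaving out the 3 shallowest libraries, and all alternatives to the summed-gene fit, were chosen after seeing the data.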

Additional observations from a re-analysis of the deposited data

Results flagged for a closer look

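The named transcripts and the summed called genes form 108 groups of 7 or 8 values, each within a procedure. The highest or lowest library stood apart by Dixon's 95% criterion 14 times. For independent groups of normally distributed values, chance gives about 1 in 20. These groups are not independent: Smarca5 and Hdac2 enter both per transcript and summed, and transcripts of a gene can mirror each other. No excess over chance is read from the 14. All values are normalized counts.

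In 7 cases a single library was low for 1 transcript. Arid1b-203 was at 2.77 in Sham replicate 2 (the others 324 to 473) and at 6.15 in HF-HI replicate 2 (the others 239 to 421). Kmt2d-202 was at 149 in HF-HI replicate 2, Kmt2a-202 at 60.2 in HF-HI replicate 3, Arid1b-201 at 163 in HF-HI replicate 7, Chd4-203 at 499.9 in HF-HI replicate 8 and Chd5-201 at 634 in Sham replicate 5.

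In the other 7 a single library was high. Kmt2a-201 was at 1764 in HF-HI replicate 3, Kmt2d-201 at 1092 in Sham replicate 4, Hdac4-202 at 322 in HF-HI replicate 4 and Sirt3-202 at 387 in HF-HI replicate 6. Smarca5, with 1 listed transcript, was at 983 in Sham replicate 5, both per transcript and per gene, and Brd1 summed was at 602 in HF-HI replicate 6 (the others 437 to 515). Without these libraries Smarca5 and Brd1 were no longer called.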

How the results depend on the processing

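The 916 calls among all transcripts became 533 with depth (log2 size factor) as a covariate. The 11 called chromatin transcripts became 7 with voom per transcript, 7 with voom on reads summed per gene and 5 without the 3 shallowest libraries. Of the 11 themselves, 5 kept their call with depth as a covariate, 7 with library weights, 6 with voom per transcript, 5 with summed reads and 4 without the 3 shallowest libraries, and the 2 called shares became 1 without those libraries. With reads summed per gene, Smarcc2 (−0.024) and Setd5 (−0.0096, log2) reversed against Smarcc2-201 and Setd5-202. Leaving out each library gave 748 to 987 calls among all transcripts, 6 to 12 among chromatin transcripts, 5 to 11 of the 11, 0 to 6 shares and 5 to 10 summed genes. Of the 11, 7 remained on omitting Sham replicate 2, 3 or 6 or, in HF-HI, replicate 6 or 8, 6 on omitting HF-HI replicate 7 and 5 on omitting HF-HI replicate 4; 6 shares were called without Sham replicate 6 and none without HF-HI replicate 4. Other priors, scalings, filters and pseudocounts kept these counts within 1.5 times. The causes were not tested.

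Same-numbered libraries did not deviate together (correlations −0.14 to 0.090, none of 7 over 0.1; 1 library correlated best with its own number), so the numbers do not pair the samples. With a replicate block, 7 of the 11 calls remained, and among summed genes 5 were called in place of 7, with Kdm3a at a p of 0.0872 and Hdac2 at 0.0890 (voom and limma).

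Precision is limited by depth in HF-HI, by the division of reads between near-identical transcripts and by the absence of transcripts under a mean of 108 normalized counts.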

Other observations

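Transcripts of other types from the same genes, which the report does not count, were not called in limma. Brd2-207, subject to nonsense-mediated decay, had 182 ± 23.5 in Sham and 161 ± 53.9 in HF-HI (normalized counts, SD). Kmt2c-203, with a retained intron, had 149 ± 16.3 and 124 ± 35.5, and Setd5-204, with a retained intron, had 191 ± 29.1 and 186 ± 42.0. Arid5b-201, Hdac5-205 and Smarca2-202, all subject to nonsense-mediated decay, had 211 ± 24.0 and 221 ± 25.4, 258 ± 88.4 and 265 ± 67.2, and 165 ± 60.2 and 145 ± 73.0.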
